A study of Homo sapiens with 16 samples.

Results

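The transglutaminase genes studied here are the 7 enzyme genes TGM1 to TGM7. All 7 were found by symbol among the 20166 gene symbols measured in RWPE1, an immortal human line grown from normal prostate epithelium. Poly-A RNA was sequenced from cells that carried a wild-type over-expression construct (6 libraries), from cells labelled as carrying the T164A mutant of the same construct (4 libraries), and from cells with the empty vector, an altered pTRIPZ (6 libraries). Nothing in the labels says whether a group was a pool or a clone, or whether its libraries came from separate cultures, so the p-values take in only how far these libraries differ from one another, which may be technical. Values are the deposited log2 values. Estimated depth was 12300000 to 19200000 reads per library, and an estimated floor of 3 reads lay at 2.30 on this scale on average.

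Transglutaminases are calcium-dependent enzymes that join a glutamine of one protein to a lysine of another, and the bond resists proteolysis. In stratified epithelium TGM1, TGM3 and TGM5 knit involucrin, loricrin and small proline-rich proteins into the cornified envelope, the shell of the dead outer cells. TGM2 is the widely expressed tissue transglutaminase, which also binds GTP and acts on matrix proteins outside the cell. TGM4 is the prostate's own enzyme, whose known substrates are the semenogelins of seminal fluid.

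The catalytic cysteine sits in a conserved stretch in every enzyme of the family. It is shown here because short-read values of related genes can be compared only where their sequences differ. The coding strand is from GENCODE 29 on GRCh38, with the cysteine codon in capitals. The last line is EPB42, a red-cell membrane protein of the same fold whose codon there (capitals) encodes alanine.
TGM1: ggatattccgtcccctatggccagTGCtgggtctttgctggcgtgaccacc
TGM2: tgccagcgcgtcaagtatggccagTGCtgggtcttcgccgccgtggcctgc
TGM3: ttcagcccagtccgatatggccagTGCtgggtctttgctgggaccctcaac
TGM4: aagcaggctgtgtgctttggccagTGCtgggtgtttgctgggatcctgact
TGM5: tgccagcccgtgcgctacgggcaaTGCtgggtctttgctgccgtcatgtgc
TGM6: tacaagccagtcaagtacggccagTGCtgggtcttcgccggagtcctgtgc
TGM7: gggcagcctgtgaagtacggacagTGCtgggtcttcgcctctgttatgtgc
EPB42: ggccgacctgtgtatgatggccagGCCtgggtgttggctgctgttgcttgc

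Of these 51 bases, 19 were identical in all 7 enzymes, and pairs of members matched at 26 to 40. The cysteine codon was codon 377 in TGM1, whose product is the longest at 817 codons, and lay between codons 268 and 279 in the other members. Over whole transcripts, the longest run of bases shared exactly by any of the 21 pairs was 26 bases (TGM1 and TGM3), and the shortest such run was 12 (TGM4 and TGM7). TGM2, TGM3 and TGM6 lie on chromosome 20, TGM5 and TGM7 on chromosome 15, TGM1 on chromosome 14 and TGM4 on chromosome 3.

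Some libraries stood apart within their groups. Over the 8842 genes with a mean of 8 or more, T164A library 93 differed from its nearest neighbour by a root mean square of 0.267, and wild-type library 14 by 0.193, while no other library was farther than 0.152 from its nearest neighbour. Leaving out these 2 libraries together changed 2 member calls, both between wild type and vector, where TGM7 was no longer called and TGM5 was. The all-gene median difference from the vector was 0.11 in the libraries labelled T164A and -0.05 in the wild-type libraries. Both comparisons with the vector use the same 6 vector libraries.

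TGM1 was the most abundant member in every group, TGM3 was higher than the vector in wild-type libraries and lower than it in libraries labelled T164A, and TGM5 fell to below the floor in libraries labelled T164A. TGM2 was the member that rose in those libraries. Between wild type and vector, 1 member was called higher (TGM3) and 2 lower (TGM1 and TGM7) by limma at an adjusted p below 0.05, where 45.5% of all genes were called, 21.0% higher and 24.5% lower. Between the libraries labelled T164A and the vector, 1 member was called higher (TGM2) and 3 lower (TGM1, TGM3 and TGM5), where 64.4% of all genes were called, 37.1% higher and 27.2% lower. Between wild type and T164A, 4 members were called higher (TGM1, TGM3, TGM5 and TGM6) and 1 lower (TGM2), where 61.8% of all genes were called, 26.7% higher and 35.1% lower. The groups did not overlap for 3 members between wild type and vector (29.4% of all genes), for 4 between T164A and vector (55.5%) and for 4 between wild type and T164A (52.4%). With 7 genes and backgrounds of this size, the counts show nothing particular to the family. TGM6 and TGM7 had means below the floor in every group.

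**Figure D1:**
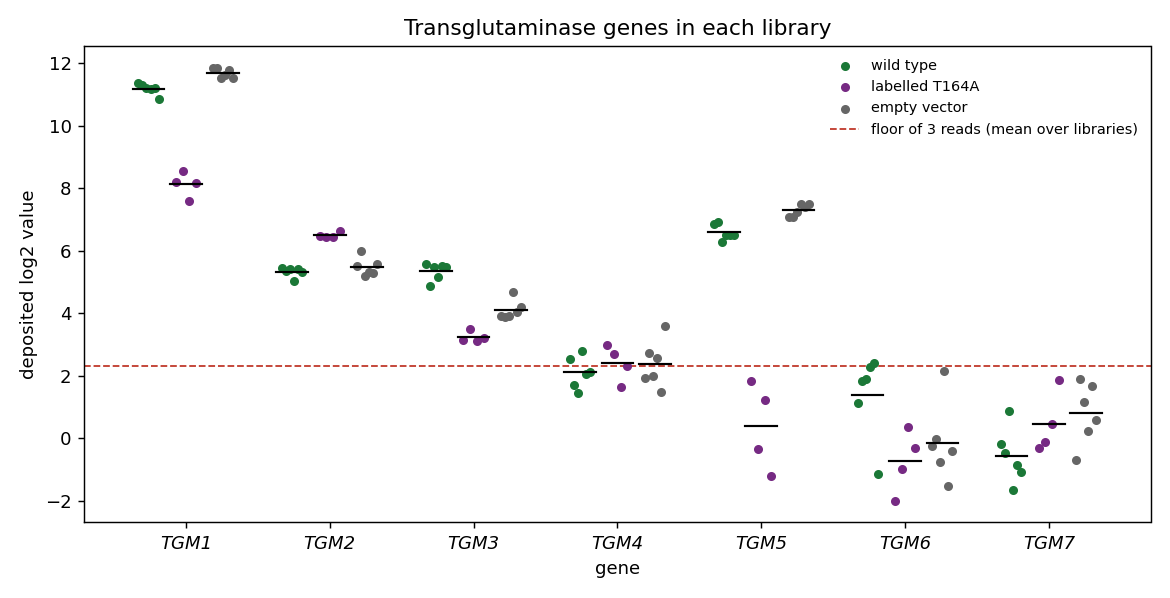
Deposited log2 values (vertical axis) of the 7 transglutaminase genes (horizontal axis), with 1 point per library for wild type (6), labelled T164A (4) and empty vector (6), a black bar at each group mean and a dashed line at the mean floor of 3 reads. TGM1 lies highest in every group, TGM5 drops below the dashed line in the 4 libraries labelled T164A only, and TGM6 and TGM7 lie around or below the line throughout.

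TGM1 is the membrane-anchored keratinocyte transglutaminase whose loss causes lamellar ichthyosis. In wild-type libraries it ranged from 10.86 to 11.37 with a median of 11.21. The libraries labelled T164A read 8.21, 8.55, 7.58 and 8.17, and the vector libraries ranged from 11.52 to 11.86 with a median of 11.71. All 3 groups were apart: the highest wild-type library was 0.15 below the lowest vector library, and every library labelled T164A was below both. TGM1 fell by 3.57 in libraries labelled T164A (SE 0.12, 11.9-fold lower, adjusted p = 1.09e-18), and 229 of the 20166 genes had a lower difference. T164A library 93, which stands apart, was the lowest, and the difference was -3.39 without it and wild-type library 14. In wild-type libraries it fell by 0.51 (SE 0.11, 1.42-fold lower, adjusted p = 0.000371). Wild type was 3.06 higher than T164A (SE 0.12, 8.36-fold, adjusted p = 3.28e-17). When the test asked for a change beyond 1.2-fold, the wild-type difference from the vector was no longer called (adjusted p = 0.0756).

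TGM3 is made as a proenzyme in the upper epidermis and hair follicle and is activated by proteolysis. Its wild-type libraries ranged from 4.89 to 5.58 with a median of 5.49. The libraries labelled T164A read 3.16, 3.51, 3.11 and 3.22, and the vector libraries ranged from 3.90 to 4.69 with a median of 3.99. Every wild-type library was thus above every vector library, and every library labelled T164A was below every vector library. TGM3 rose by 1.24 in wild-type libraries (SE 0.21, 2.37-fold higher, adjusted p = 2.49e-05). It fell by 0.86 in libraries labelled T164A (SE 0.24, 1.82-fold lower, adjusted p = 0.00233), where its values lay close to the floor of 2.31, though above it. Wild type was 2.11 higher than T164A (SE 0.24, 4.31-fold, adjusted p = 1.62e-08).

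TGM5 acts in the upper epidermal layers, and its loss causes acral peeling skin. It ranged from 6.27 to 6.93 in wild-type libraries with a median of 6.52. The libraries labelled T164A read 1.84, -0.35, 1.24 and -1.19, all below the floor, and the vector libraries ranged from 7.07 to 7.49 with a median of 7.32. Against the floor of 3 reads per library, TGM5 was at least 31.7-fold lower in libraries labelled T164A than in vector libraries (a log2 difference of at most -4.99). The limma test was of the fitted difference of -6.91 (SE 0.36, adjusted p = 4.88e-15), and the bound itself was not tested. By the fitted difference, 7 of the 20166 genes lay lower, a place that rests on values below the floor and was not worked out for the bound. Wild type was at least 19.5-fold higher than T164A by the same bound, and the fitted difference was 6.21 (SE 0.36, adjusted p = 6.17e-14).

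Wild-type and vector values of TGM5 did not overlap, with means of 6.60 ± 0.24 and 7.30 ± 0.19 (SD, n = 6 each), but the difference of -0.70 was not called in the fit of all libraries (SE 0.32, 95% interval -1.37 to -0.03, adjusted p = 0.0819). That fit shares 1 estimate of the spread over all groups, and the libraries labelled T164A, all below the floor, had an SD of 1.40. In a fit of the wild-type and vector libraries alone, the same difference was called (SE 0.12, adjusted p = 3.75e-05). It was also called without T164A library 91 (adjusted p = 0.0281), without T164A library 94 (adjusted p = 0.0193), and without wild-type library 14 and T164A library 93 together (-0.77, adjusted p = 0.0494). After quantile normalization it was called too (adjusted p = 0.0169). It was not called with close libraries averaged (adjusted p = 0.18), a minimum fold of 1.2 (adjusted p = 0.309) or no variance trend (adjusted p = 0.165). Nor was it called with array weights (adjusted p = 0.0758) or only symbols above the floor (adjusted p = 0.0711). Leaving out T164A library 92 or 93 alone, or any 1 vector or wild-type library, gave adjusted p of 0.0611 to 0.15.

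The 3 epidermal enzymes did not keep a constant ratio to each other. TGM1 minus TGM3 within a library was 5.37 to 6.42 in wild-type libraries, 4.47 to 5.06 in libraries labelled T164A and 6.93 to 7.97 in vector libraries. TGM3 minus TGM5 was -2.04 to -0.77 in wild-type libraries and -3.34 to -2.80 in vector libraries. Neither difference overlapped between the groups named. TGM1 minus TGM5 did overlap between wild type (4.34 to 4.95) and vector (4.05 to 4.79).

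TGM2, the tissue transglutaminase, moved the other way in libraries labelled T164A. Wild-type libraries ranged from 5.03 to 5.44 with a median of 5.37. The libraries labelled T164A read 6.49, 6.44, 6.45 and 6.65, and the vector libraries ranged from 5.20 to 5.99 with a median of 5.42. All 4 libraries labelled T164A were above all 12 others, and the wild-type and vector libraries overlapped. TGM2 rose by 1.02 in libraries labelled T164A (SE 0.17, 2.02-fold higher, adjusted p = 5.58e-06). After quantile normalization, which lowered the all-gene median difference to -0.10, the TGM2 difference was 0.38 and was not called (adjusted p = 0.0521). Wild type was 1.18 below T164A (log2 difference -1.18, SE 0.17, adjusted p = 6.98e-07). Between wild type and vector the difference was -0.16, with a 95% interval of -0.46 to 0.15 (adjusted p = 0.425), and after quantile normalization it was -0.50 and called (adjusted p = 0.00722).

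TGM4, the prostate transglutaminase, stayed at the level of a few reads. Wild-type libraries ranged from 1.47 to 2.79 with a median of 2.09, the libraries labelled T164A read 2.98, 2.70, 1.64 and 2.31, and the vector libraries ranged from 1.47 to 3.61 with a median of 2.28. All groups overlapped, and 2 wild-type libraries, 3 libraries labelled T164A and 3 vector libraries were above their own floor. The difference from the vector was -0.27 in wild-type libraries (95% interval -1.09 to 0.54, adjusted p = 0.627) and 0.02 in libraries labelled T164A (95% interval -0.89 to 0.94, adjusted p = 0.971). These values, most of them near or below the floor, do not tell apart differences within these intervals.

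TGM6, known from neurons, and TGM7 had no group mean above the floor. TGM6 passed the floor in 2 wild-type libraries and in no other. It ranged from -1.15 to 2.42 in wild-type libraries and from -1.51 to 2.15 in vector libraries, and the libraries labelled T164A read -1.99, -0.97, 0.35 and -0.32. TGM7 ranged from -1.67 to 0.86 in wild-type libraries and from -0.68 to 1.89 in vector libraries, and the libraries labelled T164A read -0.32, -0.10, 0.46 and 1.86. No fold is given for either gene, since both sides of each comparison lay below the floor. The calls counted above for TGM7 (wild type against vector, adjusted p = 0.0483) and TGM6 (wild type against T164A, adjusted p = 0.0129) therefore compare values too low to count as detected. Outside TGM1 to TGM7, 2 more genes of the same fold were looked at. F13A1, the A subunit of clotting factor XIII, also has the cysteine codon and was below the floor in every group. EPB42 averaged 4.23 ± 0.54 in wild-type libraries (SD, n = 6), 4.38 ± 0.44 in libraries labelled T164A (SD, n = 4) and 4.02 ± 0.32 in vector libraries (SD, n = 6), and no difference was called (adjusted p of 0.317 to 0.706).

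**Figure D2:**
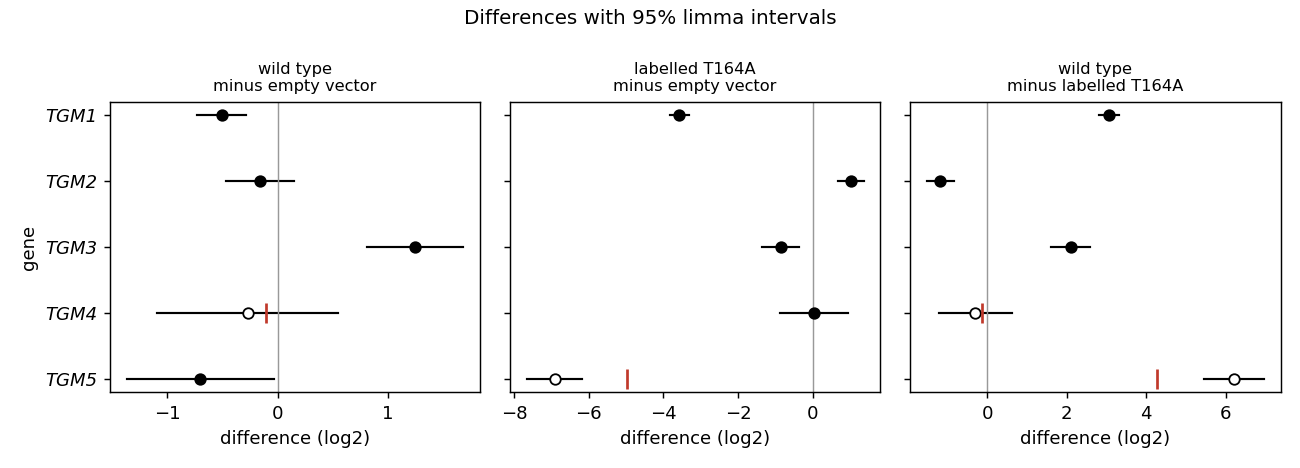
Fitted log2 differences (horizontal axis) of TGM1 to TGM5 (vertical axis) with 95% limma intervals, for wild type minus vector, labelled T164A minus vector and wild type minus labelled T164A. Open circles mark a comparison in which 1 group mean lay below the floor, and red ticks mark the bound against it. TGM3 is positive in the left panel (1.24) and negative in the middle one (-0.86), while TGM1 is negative in both.

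Members were compared with each other per kb of transcript, on a linear scale of size-scaled reads (2 raised to the deposited value, less an offset). TGM1 stood at 846 ± 97.1 in wild-type libraries (SD, n = 6), 103 ± 26.9 in libraries labelled T164A (SD, n = 4) and 1204 ± 129 in vector libraries (SD, n = 6). In vector libraries the order per kb was TGM1, TGM5 (56.6 ± 7.44), TGM2 (8.62 ± 1.93) and TGM3 (5.96 ± 1.61), and the ranges of TGM2 (6.90 to 12.2) and TGM3 (4.93 to 9.07) overlapped. In wild-type libraries TGM5 stayed second (34.7 ± 6.09), and TGM3, at up to 17.4, was in every library above the highest TGM2 value (8.17). In libraries labelled T164A the order was TGM1, TGM2 (17.6 ± 1.26) and TGM3 (2.90 ± 0.47), with TGM5 under its floor of 1.12. TGM4 lay near its floor in all groups. The order of TGM2 and TGM3 depended on the length used, since TGM2 has a long untranslated part. Per kb of coding sequence, TGM3 (13.4 to 22.2) and TGM2 (14.9 to 20.1) overlapped in wild-type libraries, and in vector libraries TGM2, at up to 30.0, lay above TGM3, at 6.26 or more, with no overlap. In libraries labelled T164A TGM2 was above TGM3 by either length.

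As a share of the summed transglutaminase level per kb, TGM1 made up 93.5% ± 0.71 in wild-type libraries, 81.8% ± 3.57 in libraries labelled T164A and 94.2% ± 1.08 in vector libraries. TGM2 made up 0.85% ± 0.12 in wild-type libraries, 14.6% ± 3.49 in libraries labelled T164A and 0.67% ± 0.12 in vector libraries. Per kb of coding sequence its share was 1.804% ± 0.257 in wild-type libraries, 26.8% ± 5.49 in libraries labelled T164A and 1.44% ± 0.26 in vector libraries. The share of TGM3 was 1.68% ± 0.39 in wild-type libraries, 2.37% ± 0.36 in libraries labelled T164A and 0.47% ± 0.15 in vector libraries, although its level was lowest in the libraries labelled T164A. Per kb of coding sequence the share of TGM3 was 1.85% ± 0.43 in wild-type libraries, 2.25% ± 0.29 in libraries labelled T164A and 0.52% ± 0.17 in vector libraries. Shares follow from the levels above and were not tested.

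**Figure D3:**
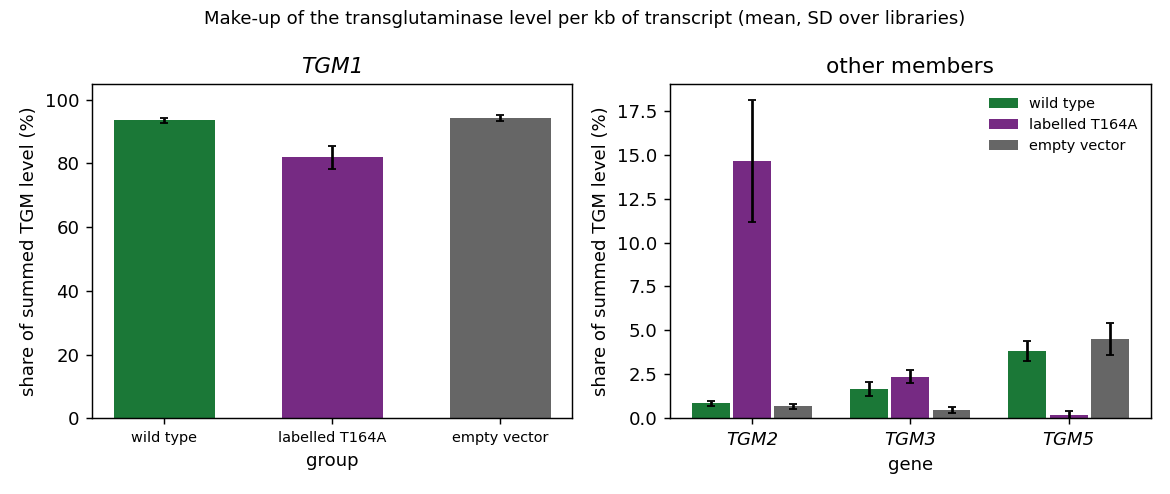
Share of the summed transglutaminase level per kb of transcript (vertical axes, percent; bars are means, error bars SD over 6 wild-type, 4 labelled T164A and 6 vector libraries), with TGM1 on the left and TGM2, TGM3 and TGM5 on the right on their own axis. TGM1 makes up 93.5%, 81.8% and 94.2% of the sum, and TGM2 reaches 14.6% in libraries labelled T164A.

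The genes of the proteins that TGM1, TGM3 and TGM5 cross-link were mostly lower in both construct groups. Of 28 cornified envelope genes, 0 were called higher and 23 lower in wild-type libraries, with a median difference of -0.89. In libraries labelled T164A, 1 was called higher and 26 lower, with a median of -4.56, or -4.44 when members below the floor were held at their bound. Between wild type and T164A, 25 were called higher and 1 lower, with a median of 3.21 against -0.08 for all genes. Without wild-type library 14 and T164A library 93 the counts lower than vector were 25 and 26. Among all genes, 21.0% were called higher and 24.5% lower in wild-type libraries, and 37.1% and 27.2% in libraries labelled T164A. Between wild type and T164A these shares were 26.7% and 35.1%. How the envelope counts differ from the shares was not tested.

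KRT1, a keratin of suprabasal cells, had a mean of 13.61 in wild-type libraries, 3.64 in libraries labelled T164A and 14.31 in vector libraries. It fell by 10.67 in the libraries labelled T164A (SE 0.10, adjusted p = 2.92e-30) and by 0.70 in wild-type libraries (SE 0.09, adjusted p = 2.37e-07). IVL, encoding involucrin, the scaffold to which TGM1 joins other envelope proteins, had means of 9.63, 3.75 and 10.62 in wild-type, labelled T164A and vector libraries. IVL fell by 6.86 in the libraries labelled T164A and by 0.99 in wild-type libraries. SPRR1B, a small proline-rich substrate, fell by 5.34 in libraries labelled T164A and by 1.08 in wild-type libraries. PI3, encoding elafin, fell by 1.67 in wild-type libraries, where its adjusted p was among the 4 smallest of the list. The exception was S100A10, which was named after its values were seen: it rose by 0.85 in libraries labelled T164A and fell by 0.54 in wild-type libraries. TGM3 thus had a positive difference in wild-type libraries where no envelope gene was called higher. SPRR2 genes have near-identical copies, so their values are uncertain.

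**Figure D4:**
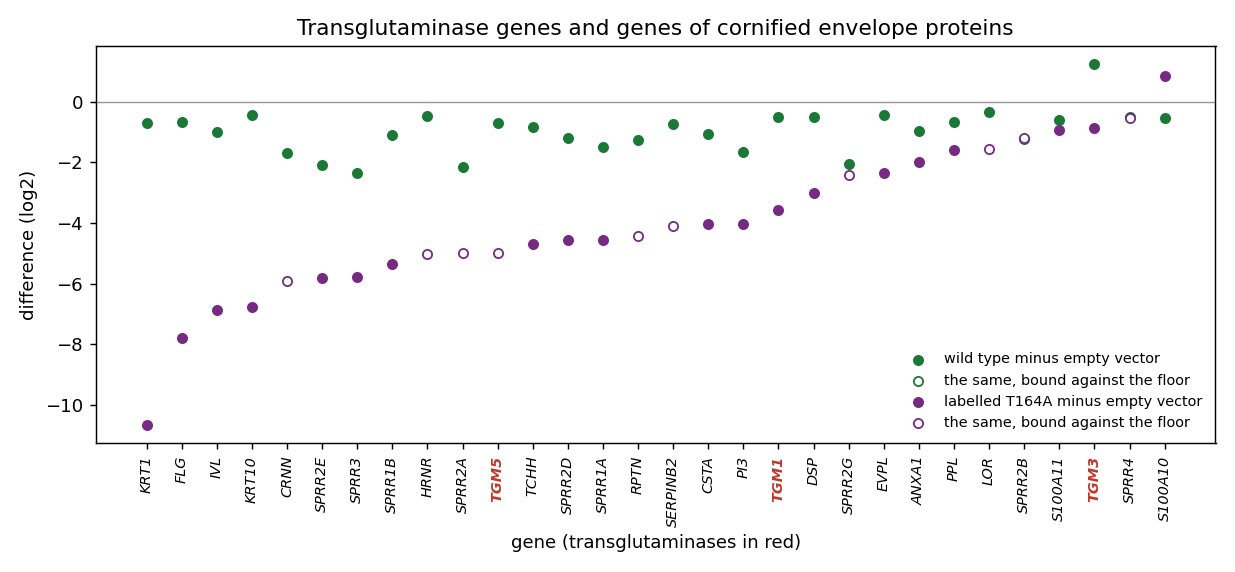
Log2 differences (vertical axis) from the empty vector for wild type (green) and labelled T164A (purple) of 27 cornified envelope genes (SPRR2F, below the floor in every group, is left out) and of TGM1, TGM3 and TGM5 (red names), ordered by the difference in the libraries labelled T164A. Open circles are bounds against the floor. KRT1 is lowest at -10.67, and TGM3 is the one green point above 0.

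Genes that make the lipid part of the same barrier, most of them mutated in recessive ichthyosis as TGM1 is, moved with the envelope genes in libraries labelled T164A. Of 12 such genes, 0 were called higher and 8 lower in wild-type libraries (median -0.61), and 0 higher and 12 lower in libraries labelled T164A (median -4.05, or -3.40 with members below the floor at their bound). The all-gene shares were 21.0% higher and 24.5% lower in wild-type libraries, and 37.1% and 27.2% in libraries labelled T164A. The difference from these shares was not tested. ABCA12, a lipid transporter of lamellar granules, averaged 11.20 in wild-type libraries, 5.66 in libraries labelled T164A and 11.76 in vector libraries. It fell by 6.10 in the libraries labelled T164A (SE 0.11, adjusted p = 6.08e-24) and by 0.56 in wild-type libraries (SE 0.10, adjusted p = 3.87e-05). NIPAL4 fell by 4.43 in libraries labelled T164A and by 0.77 in wild-type libraries. SULT2B1, the cholesterol sulfotransferase, fell by 3.89 in libraries labelled T164A and by 0.67 in wild-type libraries.

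Among 6 measured genes whose products process or activate transglutaminases, 0 were called higher and 4 lower in wild-type libraries, and 1 was called higher and 5 lower in libraries labelled T164A. The all-gene shares were 21.0% higher and 24.5% lower in wild-type libraries, and 37.1% and 27.2% in libraries labelled T164A. The difference from these shares was not tested. CTSD, the lysosomal protease cathepsin D, fell by 1.48 in libraries labelled T164A and by 0.49 in wild-type libraries. RARRES3, whose product binds TGM1, averaged 5.33 in wild-type libraries, 2.74 in libraries labelled T164A and 5.21 in vector libraries, and fell by 2.47 in the libraries labelled T164A (SE 0.25, adjusted p = 1.45e-09). CAPN1, a calcium-dependent protease, fell by 0.88 in libraries labelled T164A, while CAPN2 of the same family rose by 0.27. CAPN2 fell by 0.30 in wild-type libraries. CASR, one of the 5 called lower in libraries labelled T164A, was below the floor in all groups.

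Partners and matrix substrates of TGM2 included genes that rose and genes that fell. Of 16 genes, 9 were called higher and 3 lower in libraries labelled T164A (median 0.71), where 37.1% of all genes were called higher and 27.2% lower (median 0.11). In wild-type libraries 3 were called higher and 9 lower (median -0.34), where 21.0% of all genes were called higher and 24.5% lower (median -0.05). The difference of these shares from those of all genes was not tested. VIM, encoding the intermediate filament vimentin, a known TGM2 substrate, averaged 7.44 in wild-type libraries, 12.33 in libraries labelled T164A and 7.54 in vector libraries, and rose by 4.79 in the libraries labelled T164A (SE 0.13, adjusted p = 8.01e-21). LTBP1, a latent TGF-beta binding protein that TGM2 cross-links to matrix, rose by 2.13 in libraries labelled T164A and fell by 0.33 in wild-type libraries. TXN, encoding thioredoxin, which reduces TGM2 outside the cell, rose by 1.04 in libraries labelled T164A. PDIA3, which oxidises it, rose by 0.66 in wild-type libraries and by 0.61 in libraries labelled T164A. GPR56, a surface receptor reported to bind TGM2, fell by 1.91 in libraries labelled T164A and by 0.65 in wild-type libraries. VIM is also one of the 8 fibroblast markers, whose summed level was 5548 to 6087 in libraries labelled T164A and 1755 to 2307 in vector libraries. Without VIM the other 7 summed to 626 to 848 in libraries labelled T164A and 1491 to 2163 in vector libraries, the opposite direction. That sum does not stand for each marker, since of these 7 only COL1A1 had a mean above the floor in vector libraries. COL1A2, COL3A1, DCN, LUM, PDGFRB and THY1 were below the floor there, and COL3A1, LUM, PDGFRB and THY1 were above it in libraries labelled T164A. Of the 8 markers, 4 were called higher and 2 lower in libraries labelled T164A. With only symbols above the floor tested, 4 of 6 were called higher and 1 lower.

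Genes of seminal proteins rose in wild-type libraries, while TGM4 did not pass the test. Of 7 genes, 5 were called higher and 0 lower in wild-type libraries, and 0 higher and 4 lower in libraries labelled T164A. Of those 4, KLK3 and MSMB had means below the floor on both sides. The all-gene shares were 21.0% higher and 24.5% lower in wild-type libraries, and 37.1% and 27.2% in libraries labelled T164A. The difference from these shares was not tested. SEMG1 and SEMG2, encoding the semenogelins that TGM4 cross-links, were below the floor in every group. KLK3, the protease that cuts semenogelin and is known as prostate-specific antigen, averaged 15.11 ± 0.39 in wild-type libraries (SD, n = 6). Its mean was below the floor in the libraries labelled T164A and in vector libraries. The log2 difference from the vector was at least 12.79. The limma adjusted p of 1.82e-16 is that of the fitted difference, not of this bound. KLK2 was at least 9.89 higher in wild-type than in vector libraries. AZGP1 averaged 8.72 in wild-type libraries and 4.39 in vector libraries and was below the floor in libraries labelled T164A.

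Retinoids are known to act on TGM1 and TGM2 in opposite directions in keratinocytes and other cells, so the receptors and handling genes were set beside them. Of 10 genes, 1 was called higher and 8 lower in wild-type libraries, where 21.0% of all genes were called higher and 24.5% lower. In libraries labelled T164A, 3 were called higher and 4 lower (median 0.0012), where 37.1% of all genes were called higher and 27.2% lower. These counts were not tested against those shares. RARB, a retinoic acid receptor, was below the floor in vector libraries and averaged 3.94 in wild-type libraries and 7.51 in libraries labelled T164A, log2 differences from the vector of at least 1.62 and 5.19. CYP26A1, which breaks retinoic acid down, averaged 6.69 in libraries labelled T164A and was below the floor in both other groups, although it counts among the 8 called lower in wild-type libraries. RARG, the receptor of stratified epithelium, fell by 1.06 in libraries labelled T164A and by 0.65 in wild-type libraries. RXRA fell by 1.72 in libraries labelled T164A and by 0.35 in wild-type libraries. Fewer than 8 of these 10 genes were called lower in wild-type libraries under stricter settings, with 2 when a change beyond 1.2-fold was asked for and 4 when close libraries were averaged.

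Transcription factors of keratinocyte differentiation fell in both construct groups. Of 14, 0 were called higher and 13 lower in wild-type libraries (median -0.62), and likewise 0 higher and 13 lower in libraries labelled T164A (median -2.61). The all-gene shares were 21.0% higher and 24.5% lower in wild-type libraries, and 37.1% and 27.2% in libraries labelled T164A. The difference from these shares was not tested. ELF3 averaged 10.59 in wild-type libraries, 6.58 in libraries labelled T164A and 11.23 in vector libraries. It fell by 4.65 in the libraries labelled T164A (SE 0.08, adjusted p = 1.95e-24) and by 0.64 in wild-type libraries (SE 0.07, adjusted p = 3.94e-08). ZNF750 fell by 4.55 in libraries labelled T164A and by 0.75 in wild-type libraries. GRHL1 fell by 3.24 in libraries labelled T164A and by 0.76 in wild-type libraries. CEBPA, named after its values were seen, was the 1 factor not called in either comparison with the vector, with means of 3.31 in wild-type libraries, 3.40 in libraries labelled T164A and 3.78 in vector libraries.

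Markers of other cell states were set beside these results. Of all genes, 21.0% were called higher and 24.5% lower in wild-type libraries, and 37.1% higher and 27.2% lower in libraries labelled T164A. How the counts below differ from these shares was not tested. The summed level of 12 basal epithelial markers was 161766 to 224393 in wild-type libraries, 139473 to 160572 in libraries labelled T164A and 261055 to 308511 in vector libraries, in size-scaled reads. All 12 were above the floor in every group. Of these 12, 0 were called higher and 12 lower in wild-type libraries, and 2 higher and 8 lower in libraries labelled T164A. The sum of 12 prostate luminal markers was 54959 to 113905 in wild-type libraries, 1725 to 1848 in libraries labelled T164A and 552 to 625 in vector libraries. KLK3, KLK2, TRPM8 and HPN were below the floor in the libraries labelled T164A and in vector libraries. The sum of the 8 fibroblast markers was 1141 to 1575 in wild-type libraries, or 996 to 1402 without VIM, and COL1A2 and DCN were below the floor in all groups. Of these 8, 1 was called higher and 2 lower in wild-type libraries, and 4 higher and 2 lower in libraries labelled T164A. Of the 12 luminal markers, 12 were called higher in wild-type libraries, and 5 higher and 3 lower in libraries labelled T164A. TP63 stands in both the basal and the differentiation lists, and KLK2, KLK3 and ACPP in both the luminal and the seminal lists. The part of these states in the transglutaminase differences was not tested, and in bulk RNA fewer cells of a type and less RNA per cell cannot be told apart. Of 7 leukocyte markers, 0 were called higher and 4 lower in wild-type libraries, and 1 higher and 5 lower in libraries labelled T164A, with CD3E below the floor in every group. Of 4 endothelial markers, 1 was called higher and 1 lower in each comparison with the vector, with CDH5 and TEK below the floor in every group. KDR was also below the floor in wild-type and vector libraries, so at least 1 of the wild-type calls compares values too low to count as detected. The endothelial sum was 60.7 to 148 in wild-type libraries, 10.7 to 27.0 in libraries labelled T164A and 10.2 to 18.8 in vector libraries.

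Within the wild-type group, library 14 had the lowest luminal sum (54959), the lowest TGM3 value (4.89) and the highest TGM5 value (6.93). Library 18 had the highest luminal sum (113905) and the lowest TGM1 value (10.86). Other extremes did not line up with the luminal sum. The highest TGM3 value (5.58) was in library 13, with a luminal sum of 87154. The lowest TGM5 value (6.27) was in library 15, with a luminal sum of 101021. A relation within the group was not tested. Without library 14 and T164A library 93, the TGM3 difference between wild type and vector was 1.34 (adjusted p = 1.23e-05).

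For each member above the floor in at least 1 group, the 3 genes with the most similar values over the 16 libraries were taken, by the root mean square difference of centred log2 values among 13417 genes. For TGM1 these were MX1 (0.154), LGALS7B (0.168) and ARSI (0.172). MX1, an interferon-induced GTPase, averaged 10.14 in wild-type libraries, 6.90 in libraries labelled T164A and 10.64 in vector libraries. LGALS7B has a near-identical copy, so its value is uncertain. For TGM5 they were FLG2 (0.393), IVL (0.563) and FABP5 (0.591). FLG2, of the filaggrin family, averaged 6.92 in wild-type libraries, was below the floor in libraries labelled T164A and averaged 7.38 in vector libraries. For TGM3 they were ISG20 (0.218), ICA1 (0.228) and PNPLA7 (0.239), all highest in wild-type libraries and lowest in libraries labelled T164A, and none an envelope gene of the list above. For TGM2 they were EFTUD2 (0.155), SMOX (0.158) and SPRED2 (0.164). For TGM4, near the floor, the nearest genes were HVCN1 (0.448), GOLGA6L10 (0.486) and VWA3A (0.490).

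The upstream sequences of TGM3 and TGM5 are shown because both fell in libraries labelled T164A while only TGM3 rose in wild-type libraries. RefSeq promoters were at hand for 4 members, TGM3, TGM4, TGM5 and TGM7. The 250 bases before each start are given 5′ to 3′ on the gene's strand, on GRCh38.p14, TGM3 at chr20:2295751-2296000 on the plus strand and TGM5 at chr15:43266929-43267178 on the minus strand. Capitals mark motif matches.
TGM3: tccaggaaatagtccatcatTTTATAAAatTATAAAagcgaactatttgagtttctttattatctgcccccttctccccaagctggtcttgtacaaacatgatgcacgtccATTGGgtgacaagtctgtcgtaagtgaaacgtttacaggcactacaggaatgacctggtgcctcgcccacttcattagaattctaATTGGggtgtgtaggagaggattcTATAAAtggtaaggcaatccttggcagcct
TGM5: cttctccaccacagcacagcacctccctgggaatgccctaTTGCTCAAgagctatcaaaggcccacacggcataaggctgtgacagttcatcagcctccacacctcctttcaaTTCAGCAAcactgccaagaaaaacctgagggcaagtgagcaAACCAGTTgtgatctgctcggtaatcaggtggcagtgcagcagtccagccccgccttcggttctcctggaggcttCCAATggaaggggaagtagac

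Both strands were searched for 7 motifs, and the share of 35116 promoters of the same length with a match was counted for each. The TATA box (TATAAA, in 10.7% of promoters) had 4 matches in TGM3, 2 of them overlapping on opposite strands, and 0 in TGM5. The C/EBP motif (TTNNGCAA, in 9.05%) had 2 matches in TGM5 and 0 in TGM3. The GRHL motif (AACCNGTT, in 1.49%) had 1 match in TGM5 and 0 in TGM3. The CCAAT box (CCAAT, in 32.0%) had 2 matches in TGM3 and 1 in TGM5. AP-1 (TGANTCA, in 6.57%), Sp1 (GGGCGG, in 42.6%) and AP-2 (GCCNNNGGC, in 19.8%) had 0 matches in either. Such a match is a run of letters and not a shown binding site.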

How the data were processed

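Per the labels' protocols, poly-A RNA of RWPE1 cells was made into TruSeq libraries and sequenced on a HiSeq instrument. Per the submitters' processing notes, the build was GRCh37 and the tools, in no stated role or order, were DESeq, Cufflinks 2.0.2, TopHat2 2.0.4 and CASAVA 1.8.2. In a single table the authors deposited log2 values for 21594 rows and 16 libraries. No source used here gives their transformation. Raised to powers of 2 and less an offset of 1.89, values above 11.5 lie on equal steps per library (100% within 0.05 of a step), which gave the estimated depth and the floor of 3 reads (2.27 wild type, 2.31 T164A, 2.32 vector). Between 10 and 10.5 only 8.29% to 11.4% lie on a step, so whole read counts could not be had and count models were not used. Floors cover counting error only, and they carry the steps down to levels where no steps were seen.

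Of 1732 rows that shared a symbol, the row with the highest mean was kept, leaving 20166 symbols. limma 3.58.1 in R 4.3.3 fitted all 16 libraries by group (two-sided, 13 residual degrees of freedom, moderated with a trended prior variance), with Benjamini-Hochberg adjustment over all symbols and a threshold of 0.05. The procedure was tested on simulated data with independent libraries and 200 changed genes, chosen well above the floor. That test does not cover values near the floor or libraries of a group that resemble each other. In 8 alternatives, 1 choice each was changed: the normalization, filter, libraries fitted, weights, variance trend, minimum fold (1.2), replicates and close libraries. The list genes named are those with up to 4 smallest adjusted p per list and comparison and a group mean above the floor; S100A10, CEBPA, CASR and MSMB were named after their values were seen. The members and lists were chosen with earlier results of these data known. The gene carried by the constructs is not reported here. The labels give no batch, and one that followed the groups cannot be told apart from them. Transcript lengths and sequences come from GENCODE 29 and RefSeq on GRCh38, another build than that of the values. No source used here says how reads shared by near-identical or overlapping genes were counted.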

Additional observations from a re-analysis of the deposited data

Results flagged for a closer look

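Among the 13 sets of values of a transglutaminase gene whose group mean was above the floor, 1 had a library far from the others of its group. TGM2 read 5.03 in wild-type library 16, below the other wild-type libraries, which lay between 5.34 and 5.44. Chance marks about 1 in 20 such groups.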

How the results depend on the processing

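The number of members called between wild type and vector (3 as reported) was 5 after quantile normalization, 2 with only symbols above the floor, 3 with array weights (2 higher, 1 lower), 1 with a minimum fold of 1.2, and 2 with close libraries averaged. Leaving out 1 library at a time gave 2 to 4. TGM3 was called higher in all of these. The members gained or lost were TGM1, TGM2 and TGM5, and TGM6 and TGM7, which lie below the floor. Between T164A and vector the number was 3 after quantile normalization (4 as reported), the lost call being TGM2. Some settings, such as a minimum fold or leaving out a library of the third group, cannot change a difference, only its test. Of 360 recomputed member differences, counting these, 345 kept their direction and side of the threshold, 6 passed it anew, 2 no longer passed it and 7 changed sign. All 7 were TGM4 between T164A and vector, at -0.42 after quantile normalization, at -0.071 with close libraries averaged, and at -0.17 to 0.28 with 1 library left out (-0.07, -0.06, -0.16, -0.17 and -0.08 where negative). The cause was not tested. Quantile normalization moved the all-gene calls from 4244 higher and 4939 lower to 3775 and 6136 between wild type and vector, and from 7487 and 5490 to 6201 and 6940 between T164A and vector. Between wild type and T164A it moved them from 5387 and 7070 to 6427 and 6074. With a minimum fold of 1.2, TGM2 partners called lower in wild-type libraries numbered 4 (9 as reported) and activators 2 (4 as reported). Leaving out wild-type library 14 and T164A library 93 together was chosen after seeing the data, and so was recounting each gene list under each setting. Without these 2 libraries, wild type against vector had 25 envelope genes lower (23 as reported), 7 retinoid genes lower (8) and 1 fibroblast marker lower (2). T164A against vector had 4 activators lower (5), 8 TGM2 partners higher and 4 lower (9 and 3), and 6 luminal markers higher (5). The other list counts printed here for these comparisons did not change. No paired analysis was possible because the groups compared share no replicate numbers. Depth limits TGM4, TGM6 and TGM7, which lie near or below 3 reads.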
